A study of Mus musculus with 64 samples.

Results

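The livers of adult mice were compared with the livers of late-gestation fetuses. The members were the 48 liver libraries among the 64 RNA-seq samples of the study, chosen by their stage label alone, and they comprised 24 adult livers and 24 fetal livers. At each stage 12 livers were labelled M and 12 labelled F, and the gender label entered the main model as a covariate. The other 16 samples, embryonic stem cells and eight-cell embryos, were not used here. All animals were labelled C57BL/6 (C57BL/6 J in the study's methods), without an engineered allele or a treatment in their labels, and the adults were killed at 15 to 20 weeks of age between 10 am and 12 pm. Each liver gave 1 library of total RNA depleted of ribosomal RNA. The labels do not say which fetuses were littermates, so p-values measure the spread between these libraries.

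The fetal liver is a blood-forming organ as well as a metabolic one. Hepatoblasts and young hepatocytes lie among islands of red cell precursors, granulocyte and platelet precursors and blood stem cells, which move to the bone marrow around birth. After birth the hepatocyte takes on gluconeogenesis, urea synthesis, bile acid synthesis, detoxification and the bulk secretion of plasma proteins, divides rarely, and divides its tasks between the portal and the central end of the lobule. The comparison therefore covers both a change of cell types and a change within hepatocytes. In RNA from whole liver, fewer cells of a type and less RNA per cell cannot be told apart.

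Reads on genes numbered 5145371 to 8499603 per fetal liver (median 6914322.5) and 1567583 to 4757610 per adult liver (median 2708579), so every fetal library was deeper than every adult one. A level of 3 reads corresponded to 0.353 to 0.583 CPM (counts per 1000000 reads on genes, here before TMM scaling) in fetal and 0.631 to 1.91 CPM in adult libraries. The 100 most abundant genes took 20.5 to 23.6% of the reads on genes in fetal and 29.2 to 34% in adult liver. Levels below are CPM scaled by TMM, a method that sets the typical gene to no change, and are given as the lowest to the highest of 24 livers with the median. Differences are log2 (adult/fetal) ± SE from edgeR's quasi-likelihood test, with p-values adjusted by Benjamini and Hochberg over all 12647 genes tested. The SE is the absolute log2 divided by the square root of the test's F statistic. Where a stage held few reads, this SE can be smaller than counting error alone. A gene was called higher or lower in adult liver at an adjusted p under 0.05 with an absolute log2 above 1.

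Several fetal livers stood apart in groups of genes that were chosen after the data were seen. Fetal liver 14 held 824.8 CPM of 4 intestinal genes (Fabp2, Vil1, Epcam and Krt19) against 6.98 to 26.3 CPM in the other 23. Genes of pancreatic enzymes (Cpa1, Cela2a, Cpb1, Prss2, Ctrb1 and Cel) summed to 953.7 CPM in fetal liver 15, 447.7 in 12, 208.9 in 24 and 148.1 in 11, while the other 20 held 0 to 117 CPM, with a median of 0.663 and the highest value in fetal liver 14. A set of 24 genes abundant in adult liver and near 0 in fetal liver reached 0.760% of their adult mean in fetal liver 22 and 0.0755% in fetal liver 21, against 0.00261 to 0.0336% in the other 22. The source of these transcripts was not tested. These 7 libraries were kept, and the named genes whose differences moved most without them are given both ways.

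**Figure D1:**
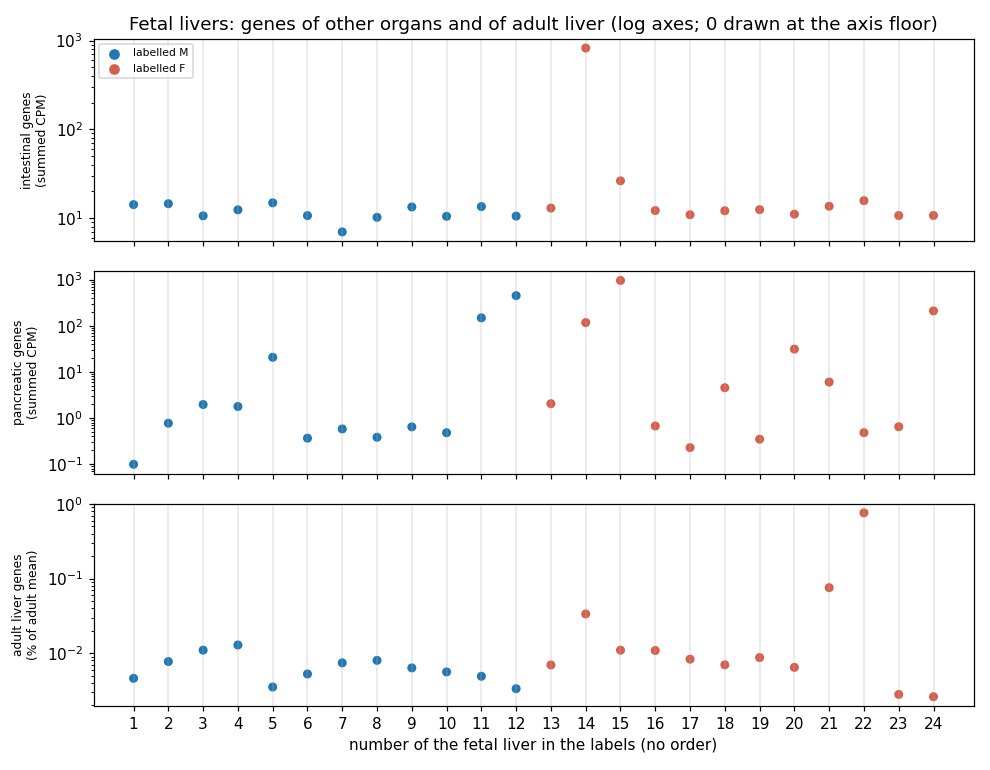
Summed CPM of 4 intestinal genes (top) and 6 pancreatic genes (middle), and the level of 24 adult liver genes as a percentage of their adult mean (bottom), in each of the 24 fetal livers, on log axes with the label number on the x axis and the gender label as colour (0 is drawn at the axis floor). Fetal liver 14 stands apart in the top panel, 15, 12, 24 and 11 in the middle panel, and 22 and 21 in the bottom panel.

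The label of each stage was first checked on 4 liver markers. Afp, the alpha-fetoprotein that carries ligands in fetal plasma (chr5:90490737-90508907), lay at 9609 to 14135 CPM (median 11431) in fetal and 0 to 3.88 CPM (median 0.922) in adult livers. The transcript was among the most abundant in every fetal liver and near 0 in every adult one. The difference was -13.07 ± 0.14 (adjusted p = 4.83e-55). Its neighbour Alb, which encodes albumin (chr5:90460897-90476602), was already among the most abundant genes before birth, at 12456 to 17538 CPM (median 14362) in fetal and 20789 to 38107 CPM (median 29798) in adult livers. The ranges did not overlap, and the difference of 0.99 ± 0.05 (adjusted p = 5.06e-25) lay just under the threshold of 1. Cps1, the carbamoyl phosphate synthetase that opens the urea cycle (chr1:67123026-67231259), lay at 819 to 1795 CPM (median 1232) and 6495 to 12778 CPM (median 8673). It was present in all fetal livers and rose by 2.80 ± 0.08 (adjusted p = 6.04e-37). Cyp2e1, a cytochrome P450 that oxidizes ethanol and other small molecules (chr7:140763739-140774987), lay at 3.6 to 43.8 CPM (median 17.2) in fetal and 3436 to 6938 CPM (median 4802) in adult livers. It was low in every fetal liver and high in every adult one, with a difference of 8.02 ± 0.20 (adjusted p = 4.28e-36). Positions are on GRCm38.

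**Figure D2:**
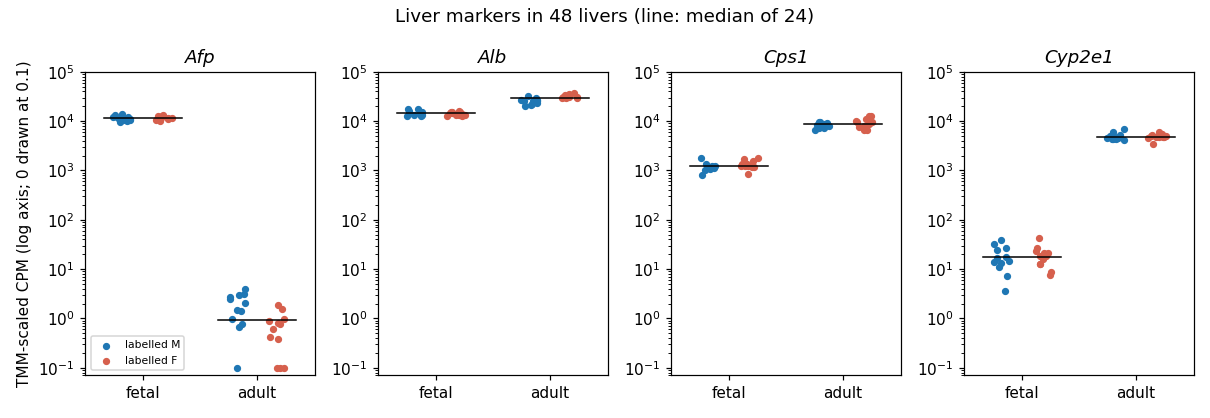
Level of Afp, Alb, Cps1 and Cyp2e1 in each of the 48 livers as TMM-scaled CPM on a log axis, with the gender label as colour and a line at the median of 24 (0 is drawn at the axis floor). Afp falls from a median of 11431 to 0.922 CPM, Cyp2e1 rises from 17.2 to 4802, and no marker's ranges overlap between the stages.

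Afp and Alb are neighbouring genes of 1 family on chromosome 5. Per kilobase of exon, the log2 ratio of Alb to Afp was 0.69 to 1.04 in the 24 fetal livers and 13.01 to 16.62 in the 24 adult livers, with 0.5 CPM added to both genes. The proximal promoters of both genes are shown because the genes lie side by side and moved differently. The 300 bases run from 250 before to 50 after the RefSeq gene start (GRCm38.p6, plus strand), at chr5:90460620-90460919 for Alb and chr5:90490464-90490763 for Afp. Capitals mark GTTAAT, a motif known from promoters of liver genes, searched on both strands.
Alb: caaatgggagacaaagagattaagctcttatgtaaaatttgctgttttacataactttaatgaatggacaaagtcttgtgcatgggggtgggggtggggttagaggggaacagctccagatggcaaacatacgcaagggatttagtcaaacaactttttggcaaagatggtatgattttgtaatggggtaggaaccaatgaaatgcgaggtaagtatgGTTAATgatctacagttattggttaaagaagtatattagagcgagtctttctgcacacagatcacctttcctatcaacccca
Afp: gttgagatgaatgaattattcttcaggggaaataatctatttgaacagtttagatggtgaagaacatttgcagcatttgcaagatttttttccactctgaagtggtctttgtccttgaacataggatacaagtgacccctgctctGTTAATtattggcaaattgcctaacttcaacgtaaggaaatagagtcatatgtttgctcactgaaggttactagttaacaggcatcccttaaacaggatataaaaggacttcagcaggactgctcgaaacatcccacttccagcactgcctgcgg
The match began 32 bases before the start of Alb and 105 bases before the start of Afp, so these letters were present in the promoter of a gene that fell as well as in one that did not. Of the 42 plasma protein genes described further on that had a promoter in the table, 11 (26.2%) held GTTAAT, against 8.30% of all 25748 autosomal genes with such a window. A match describes the letters only and is not evidence of binding.

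Across the autosomes 12169 of the 22066 genes listed had enough reads to be tested, and 3424 had no read in any liver. Of the tested genes 5165 (42.4%) were called, 2378 (19.5%) higher and 2787 (22.9%) lower in adult liver. The counts of each list below are to be read beside these shares. The split depended on the scaling. With library totals alone the median gene moved by -0.56 on the log2 scale, 5840 genes were called, and 1404 of them (24.04%) were higher, against 46.0% with TMM. Values below are relative to the TMM scale, and where library totals turned the direction of a gene its value on that scale is given too. A gene near 0 at 1 stage passed the read filter through the other stage alone, so the counts and medians of lists with many such genes are a description. The ranges of 24 and 24 livers did not overlap for 5086 genes (41.8%). The median difference over all tested genes was -0.04, and its 5th and 95th percentiles were -4.28 and 2.69. Large changes were more often losses: 968 genes were lower and 492 higher by at least 3 on the log2 scale. Called genes made up 38.1% (chromosome 5) to 47.8% (chromosome 13) of the tested genes of each autosome.

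**Figure D3:**
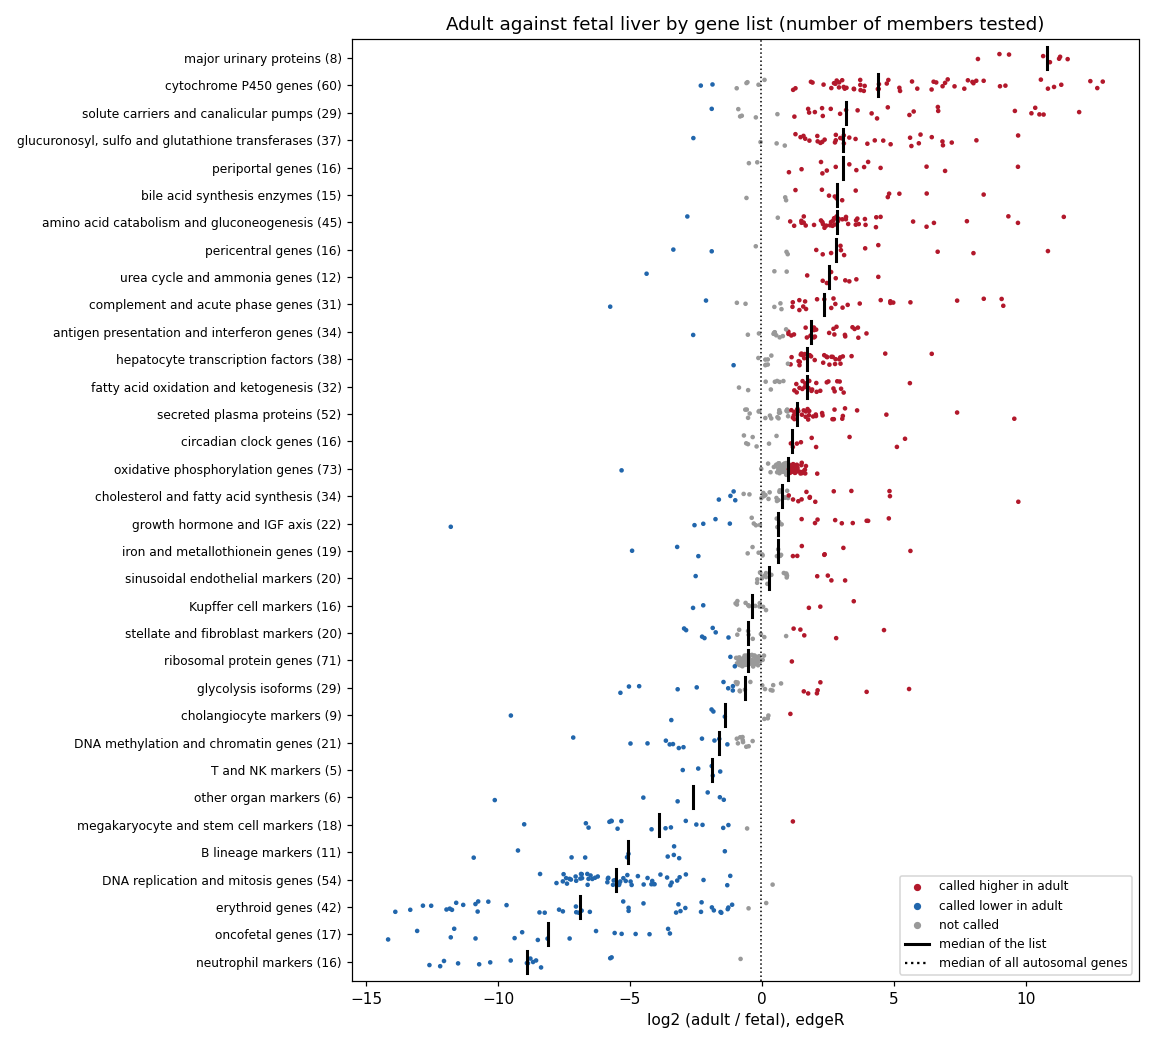
Difference between adult and fetal liver, log2 (adult/fetal), for the members of 34 gene lists ordered by their median (black bar), with the number of members tested in parentheses, called genes in red (higher in adult) or blue (lower in adult) and a dotted line at the median of all autosomal genes (-0.04). Lists of blood cells, cell division and oncofetal genes lie to the left, and lists of major urinary proteins, cytochrome P450 genes and metabolic enzymes to the right. The sinusoidal endothelial median of 0.28 turns to -0.28 with library totals.

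Genes of the fetal growth programme were near absent from adult liver. All 17 tested of 18 oncofetal genes were called lower, with a median of -8.13 (-7.29 with the 2 genes without an adult read set at their bound). Their sum lay at 15899 to 21664 CPM in fetal and 14.7 to 58.4 CPM in adult livers. H19, an imprinted non-coding RNA (chr7:142575529-142578143), lay at 3037 to 5859 CPM (median 5058) in fetal livers and 0 to 1.16 CPM (median 0) in adult ones, the lowest difference of all autosomal genes at -14.17 ± 0.13 (adjusted p = 1.30e-60). H19 had no read in 15 of the 24 adult livers. Igf2, the fetal insulin-like growth factor that shares the imprinted locus of H19 (chr7:142650766-142666816), lay at 707 to 1428 CPM (median 885) and 0 to 1.44 CPM (median 0), a difference of -11.79 ± 0.12 (adjusted p = 8.70e-59). It was abundant in every fetal liver and near 0 in every adult one. Dlk1, a membrane protein of hepatoblasts, lay at 107 to 192 CPM (median 132) in fetal livers and had 1 read in all adult livers together. Lin28b, which blocks the maturation of the let-7 microRNAs, lay at 19.4 to 35.9 CPM (median 27.8), also with 1 adult read. Igf2bp3 and Igf2bp1 encode RNA-binding proteins of fetal tissue, and their fetal medians of 77.2 and 31.8 CPM stood against 1 and 2 adult reads. Hmga2, a chromatin protein, was low already in the fetus, at 3.93 to 8.63 CPM (median 5.86), and its difference was -3.56 ± 0.20 (adjusted p = 1.37e-23). Lin28a and Sall4 had no read in any adult liver, which put Lin28a (fetal median 8.37 CPM) at least 157-fold and Sall4 (6.07 CPM) at least 117-fold lower, with the floor at 3 reads over the 24 adult livers.

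The growth factor change was reciprocal. Igf1, the insulin-like growth factor of postnatal life that the liver secretes under growth hormone, lay at 21.9 to 45 CPM (median 28.4) in fetal and 541 to 1273 CPM (median 791) in adult livers. All adult livers were above all fetal ones, with a difference of 4.81 ± 0.09 (adjusted p = 5.49e-44). Per kilobase of exon, the log2 ratio of Igf1 to Igf2 was -6.16 to -4.93 in fetal and 8.25 to 10.52 in adult livers. Of 22 tested genes of the growth hormone and IGF axis, 9 were higher, 5 lower and 8 not called, with a median of 0.62 (0.05 with library totals). The shares over all genes were 19.5% higher and 22.9% lower. Among receptors, Ghr, the growth hormone receptor, rose from a median of 116 CPM (88.5 to 138) to a median of 948 CPM (665 to 1181), a difference of 3.03 ± 0.05 (adjusted p = 8.46e-51), Egfr, the receptor of epidermal growth factor, rose by 3.97, and Lifr, a subunit of the leukaemia inhibitory factor receptor, by 2.11. Igf1r, the receptor of both IGFs, fell from a median of 49.1 CPM (35 to 89) to a median of 8.72 CPM (4.41 to 13.2), a difference of -2.56 ± 0.08, and Igf2r, which clears IGF2, fell by 1.76. Of the binding proteins, Igfals, the stabilizer of circulating IGF1, rose by 4.02 and Igfbp2 by 2.77. Igfbp1, which responds to fasting and insulin, fell by 2.22 ± 0.31 (adjusted p = 5.95e-09) but ranged from 259.7 to 839.5 CPM in fetal and 3.32 to 414 CPM in adult livers, so the ranges overlapped.

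Genes of blood formation fell in the erythroid, neutrophil, B lineage, and platelet and stem cell lists. Of 42 tested erythroid genes 40 were called lower, none higher and 2, Alad and Aqp1, were not called, with a median of -6.89 (-6.50 with the 8 genes without an adult read at their bound). Their sum lay at 14677 to 22367 CPM in fetal and 1494 to 1778 CPM in adult livers. Slc4a1, the anion exchanger of the red cell membrane, lay at 1767 to 2789.6 CPM (median 2304) in fetal and 0 to 4.01 CPM (median 0.49) in adult livers (-11.59 ± 0.15, adjusted p = 3.80e-51). Every fetal liver was far above every adult one. Kel, the Kell blood group protein, lay at 329.9 to 512 CPM (median 436) in fetal livers with 1 adult read, Rhd, a Rhesus protein, at 185 to 341 CPM (median 239) with 1, and Hemgn, an erythroid nuclear protein, at 291 to 566 CPM (median 404) with 2. Ermap, an erythroid membrane protein (236 to 486 CPM, median 353), and Add2, an adducin of the membrane skeleton (137 to 212 CPM, median 175), had no adult read, which put them at least 6444-fold and 3174-fold lower.

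Regulators and receptors of red cell precursors fell too. Klf1, the erythroid Kruppel-like factor, lay at 99.9 to 214 CPM (median 144) in fetal and 1.11 to 8.41 CPM (median 4.26) in adult livers (-5.05 ± 0.10, adjusted p = 6.76e-44). Epor, the erythropoietin receptor, lay at 39.9 to 77.5 CPM (median 53.7) and 0 to 4.87 CPM (median 1.37), a difference of -5.26 ± 0.13 (adjusted p = 8.01e-40). Tfrc, the transferrin receptor that most dividing cells also use, lay at 1038 to 1757 CPM (median 1352) and 33.8 to 131 CPM (median 55), a difference of -4.49 ± 0.11 (adjusted p = 2.03e-38). None of the 3 overlapped between the stages. Globin values need care, because reads that align to several places were not counted: Hba-a1 and Hbb-b1, whose copies are near-identical, had 1 and 3 reads in all fetal livers together, so these symbols carry no measurement. The beta globin listed as Beta-s was counted, at 1046 to 1762 CPM (median 1451) in fetal and 92.4 to 248 CPM (median 159) in adult livers (-3.16 ± 0.09, adjusted p = 7.63e-35), without overlap. Reads of Beta-s that align to several places are missing from these values too, and their number is not known.

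The promoters of Epor (chr9:21963527-21963826) and Kel (chr6:41704276-41704575), both on the minus strand, are shown as examples of erythroid genes that fell together. Capitals mark AGATAA, a motif of GATA factors, and CCACCC, a motif of Kruppel-like factors, each searched on both strands, and the sequences run 5′ to 3′ along the gene.
Epor: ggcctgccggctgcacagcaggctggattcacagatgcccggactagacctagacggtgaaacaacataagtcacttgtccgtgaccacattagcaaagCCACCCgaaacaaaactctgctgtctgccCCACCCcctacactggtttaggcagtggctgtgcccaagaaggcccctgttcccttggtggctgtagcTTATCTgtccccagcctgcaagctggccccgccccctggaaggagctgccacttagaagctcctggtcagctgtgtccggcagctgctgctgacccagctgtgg
Kel: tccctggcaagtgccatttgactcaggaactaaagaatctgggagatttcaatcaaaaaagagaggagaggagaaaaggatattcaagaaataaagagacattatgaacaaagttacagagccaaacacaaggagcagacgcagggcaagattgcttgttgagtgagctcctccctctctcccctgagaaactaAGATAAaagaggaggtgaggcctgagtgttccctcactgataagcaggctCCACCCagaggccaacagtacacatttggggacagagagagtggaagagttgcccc
In Epor the motif AGATAA began 54 bases before the gene start, on the other strand, and CCACCC lay at -151 and -122. In Kel AGATAA began 56 bases before the start and CCACCC at -6. Of 32 erythroid genes with a window, 11 (34.4%) held AGATAA, against 12.7% of all autosomal genes with a window, and 16 (50%) held CCACCC, against 34.3%. Genes with several starts had several windows; counted by window, AGATAA was in 26.2% of erythroid and 11.2% of all windows. These shares are descriptions of the letters.

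Genes of neutrophils, platelets and B cells fell as well. Of 16 tested neutrophil genes 15 were called lower, none higher and 1, Cebpe (-0.81), was not called, with a median of -8.89 (-8.82 with the 4 genes without an adult read at their bound). S100a8, a calcium-binding protein of neutrophils, lay at 241 to 536 CPM (median 379.8) in fetal and 0 to 3.05 CPM (median 0.587) in adult livers (-8.87 ± 0.14, adjusted p = 3.15e-47). The granule proteins Ngp (194 to 469 CPM, median 341 in fetal livers), Mpo (128 to 223 CPM, median 174) and Elane (19.9 to 34 CPM, median 25.5) had 3, 2 and 2 reads over the 24 adult livers, and Camp had none, which put it at least 2715-fold lower. Of 18 platelet and stem cell genes 16 fell and 1 rose. Pf4, platelet factor 4, went from a median of 39.6 CPM (23.1 to 66.9) to a median of 0.708 CPM (0 to 2.4), a difference of -5.70 ± 0.17 (adjusted p = 1.27e-35) and Itga2b, an integrin of platelets, from a median of 48.6 CPM (36 to 88.9) to a median of 4.35 CPM (0.701 to 8.75), a difference of -3.45 ± 0.12. Kit, a receptor of blood stem cells and mast cells, fell from a median of 29.5 CPM (22.7 to 54) to a median of 12.1 CPM (4.91 to 16.3), a difference of -1.47 ± 0.10. The gene of this list that rose was Hlf (1.17 ± 0.10), a transcription factor of blood stem cells that hepatocytes also use in the output of the clock. It was not called with library totals (0.61). All 11 tested B lineage genes fell (median -5.06), among them Cd79a, a signalling chain of the B cell receptor. It lay at 3.1 to 9.65 CPM (median 6.02) in fetal and 0 to 2.15 CPM (median 0.553) in adult livers (-3.33 ± 0.22). Rag1, which recombines antigen receptor genes, had a fetal median of 46 CPM and no adult read (at least 845-fold lower). Only 5 of 14 T and NK markers could be tested, and all 5 fell (median -1.90). Members could pass the read filter through fetal liver alone, so nothing is read from this count. The ranges of 1 tested member did not overlap. The list sums overlapped, at 13.6 to 29.3 CPM in fetal and 2.1 to 14.4 CPM in adult livers. Nkg7, a granule protein, had medians of 2.91 CPM in fetal and 0.436 CPM in adult livers. Cd3e, part of the T cell receptor, had 2 reads in all fetal and 11 in all adult livers.

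**Figure D4:**
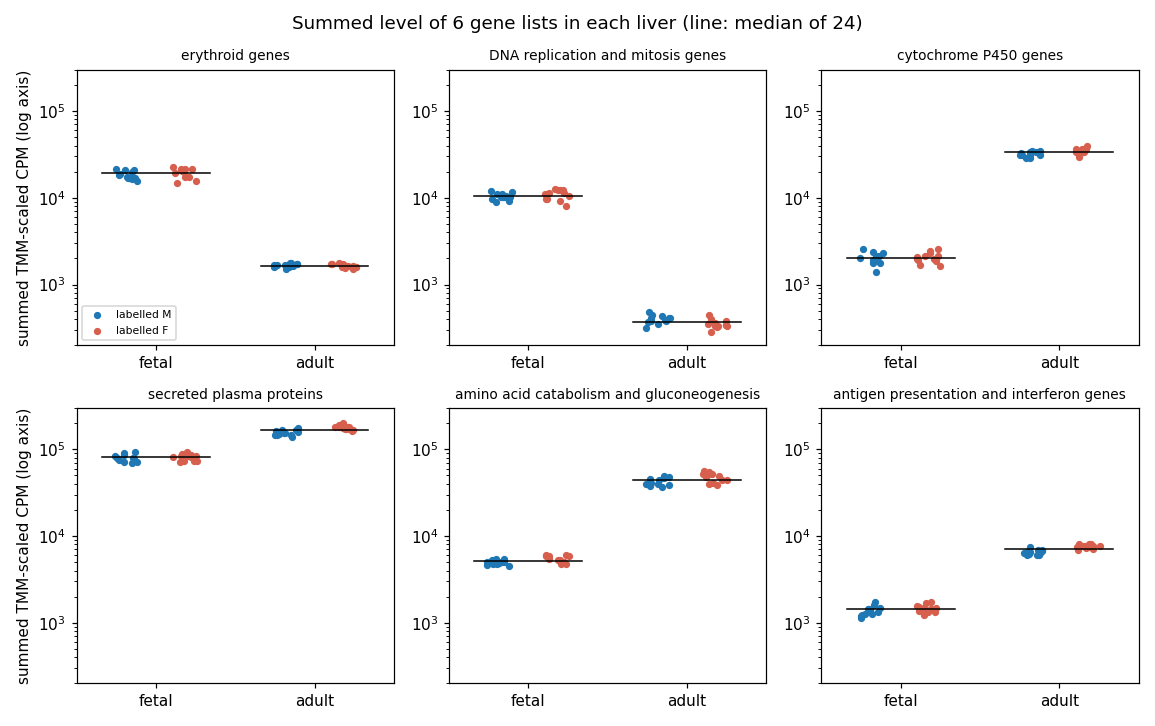
Summed TMM-scaled CPM of 6 gene lists in each of the 48 livers on log axes, with the gender label as colour and a line at the median of 24. The erythroid sum lies at 14677 to 22367 CPM in fetal and 1494 to 1778 CPM in adult livers and the cytochrome P450 sum at 1386 to 2545 CPM and 28958 to 39668 CPM, without overlap.

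Cell division genes fell together. Of 54 tested genes of DNA replication and mitosis 53 were called lower and none higher, with a median of -5.51 beside -0.04 for all genes. Their sum lay at 8140.4 to 12556 CPM in fetal and 281 to 478 CPM in adult livers. Mki67, the Ki-67 protein of cycling cells, lay at 2001 to 3372 CPM (median 2836) in fetal and 3.64 to 21.6 CPM (median 6.82) in adult livers (-8.41 ± 0.14, adjusted p = 1.27e-44). Top2a, the topoisomerase of dividing cells, lay at 723 to 1092 CPM (median 878) and 2.55 to 19.2 CPM (median 6.07), a difference of -7.06 ± 0.12 (adjusted p = 1.01e-46). Both were high in every fetal liver and low, though not absent, in every adult one. Mcm5, part of the replicative helicase, fell by 5.37 ± 0.10 and Ccnb1, cyclin B1, fell by 7.55 ± 0.13. Cdk1, the kinase that cyclin B1 activates, lay at 89.3 to 144 CPM (median 113) and 0.332 to 8.01 CPM (median 1.45), a difference of -5.82 ± 0.11 (adjusted p = 9.89e-45). The member not called was Mcm10 (59.9 and 73.2 CPM, 0.40 ± 0.15), a replication initiation factor. The promoter of Cdk1 (chr10:69352863-69353162, minus strand) is shown as an example of these genes, with capitals at TTTGAA, the element of cell cycle genes called CHR, and CCAAT, each searched on both strands.
Cdk1: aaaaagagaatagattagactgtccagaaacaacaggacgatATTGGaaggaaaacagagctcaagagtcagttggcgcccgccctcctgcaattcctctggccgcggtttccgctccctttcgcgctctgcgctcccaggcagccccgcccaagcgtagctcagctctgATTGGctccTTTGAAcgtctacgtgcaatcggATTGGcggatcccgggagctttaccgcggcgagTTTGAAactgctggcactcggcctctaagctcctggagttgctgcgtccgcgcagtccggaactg
TTTGAA began 71 and 15 bases before the gene start, and CCAAT lay on the other strand at -208, -80 and -48. Of 43 members with a window, 20 (46.5%) held TTTGAA, against 19.9% of all autosomal genes with a window, and 31 (72.1%) held CCAAT, against 41.0%.

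Genes of DNA methylation and chromatin fell or were not called. Of 21 tested genes 12 were called lower, beside 22.9% of all genes, and none higher, with a median of -1.62 (20 lower with library totals). Uhrf1, which brings the maintenance methyltransferase to replicated DNA, lay at 155 to 234 CPM (median 183) in fetal and 0 to 3.34 CPM (median 1.37) in adult livers (-7.15 ± 0.12, adjusted p = 3.05e-48). Dnmt1, that methyltransferase, lay at 212 to 316 CPM (median 260.4) and 18.6 to 37.4 CPM (median 30.3), a difference of -3.15 ± 0.06 (adjusted p = 4.37e-47), and Ezh2, the polycomb methyltransferase, at 52.8 to 98.5 CPM (median 81.9) and 3.64 to 12.2 CPM (median 7.97), a difference of -3.37 ± 0.08 (adjusted p = 8.93e-41). No range overlapped. The de novo methyltransferase Dnmt3b fell by 1.62 ± 0.11. Dnmt3a (-0.95), Tet2 (-0.59), Tet3 (-0.91), Ezh1 (-0.35) and Eed (-0.50) were not called.

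Resident cells other than hepatocytes showed mixed changes, and their shares of called genes (5 of 16 Kupffer, 5 of 20 sinusoidal and 12 of 20 mesenchymal genes) lay on both sides of the 42.4% of all genes. Of 16 tested Kupffer cell markers 3 were higher, 2 lower and 11 not called, with sums of 1089 to 1773 CPM in fetal and 761 to 1808 CPM in adult livers that overlapped. Clec4f, the lectin that marks Kupffer cells, rose from a median of 55 CPM (24.4 to 82.6) to a median of 179.6 CPM (104 to 305), a difference of 1.78 ± 0.11 (adjusted p = 4.66e-21). Csf1r, the receptor of macrophage colony-stimulating factor (-0.52 ± 0.06), and Cd5l, a secreted macrophage protein (-0.08 ± 0.08), were not called, though Csf1r was called lower with library totals (-1.08). Marco, a scavenger receptor, fell by 2.61 ± 0.18 and Lyz2, lysozyme of macrophages and granulocytes, fell by 2.22 ± 0.09. Among 20 sinusoidal endothelial markers 4 rose, 1 fell and 15 were not called, and the median of 0.28 turned to -0.28 with library totals. Stab2, a scavenger receptor of sinusoidal cells, lay at 192 to 319 CPM (median 251) and 185 to 263 CPM (median 222), a difference of -0.18 ± 0.05. Clec4g, a lectin of these cells, rose from a median of 14.7 CPM (9.48 to 20.6) to a median of 83.5 CPM (70.8 to 131), a difference of 2.63 ± 0.06 (adjusted p = 6.28e-42), while Lyve1, a hyaluronan receptor, fell from a median of 73.9 CPM (54.8 to 88.5) to a median of 11.6 CPM (3.95 to 31.7), a difference of -2.51 ± 0.10 (adjusted p = 1.06e-29). Kdr, the VEGF receptor, was not called, at 0.83 ± 0.04.

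Mesenchymal genes went both ways. Of 20 tested genes 5 were higher and 7 lower (11 lower with library totals), with a median of -0.52. Col1a1, a chain of fibrillar collagen, fell by 2.95 ± 0.25 (adjusted p = 4.46e-15), with 17.46 to 199.6 CPM (median 49.9) in fetal and 1.66 to 17.8 CPM (median 6.31) in adult livers, ranges that overlapped. Col3a1, another fibrillar collagen, fell by 1.75 ± 0.13 and Acta2, smooth muscle actin, fell by 2.87. Dcn, the proteoglycan decorin (1.20 ± 0.05), Lrat, which stores retinol as ester in stellate cells (1.46 ± 0.11), Ecm1, a matrix protein (2.81 ± 0.11), and Rgs5, a regulator of G protein signalling (4.63 ± 0.25; 5.55 without the 7 libraries named above), rose. Dcn (0.63) and Lrat (0.89) were not called with library totals.

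Bile duct markers were lower as a sum in adult liver, and 1 library set the values of some members. The list summed to 173 to 589 CPM (median 200) in fetal and 48.8 to 157 CPM (median 88.3) in adult livers, without overlap. Of 9 tested genes 5 were lower, 1 higher and 3 not called (median -1.41), beside 22.9% lower and 19.5% higher among all genes. Differences within the list ran from -9.52 to 1.08, and the ranges of 2 tested members did not overlap. Spp1, osteopontin, rose by 1.08 ± 0.17 (adjusted p = 7.83e-08), and was not called with library totals (0.51). Sox9, a duct cell factor, lay at 0.261 to 7.31 CPM (median 1.64) and 0 to 6.1 CPM (median 2.06), a difference of 0.24 ± 0.25 (-0.32 with library totals), which was not called. Epcam, an adhesion protein of ducts and intestine, was called lower at -1.41 ± 0.61 (adjusted p = 0.0303) with all livers, but its median was 2.2 CPM in fetal and 2.28 CPM in adult livers. Fetal liver 14 alone held 153.8 CPM of it and the next 9.53. The difference was 0.029 without fetal liver 14 and 0.33 without the 7 libraries named above. Krt19, a keratin of the same cells, reached 80.5 CPM in fetal liver 14 and 9.22 CPM in the next, and its fall of -1.84 ± 0.42 was -1.17 without that library. Of 24 markers of other organs 6 could be tested, and all 6 fell. These members could pass the read filter through fetal liver alone, and 21 of the list had an adult mean under 1 CPM. Nothing is read from this count. The mesothelial genes Upk3b (-2.06 ± 0.19), Msln (-1.59 ± 0.18) and Lrrn4 (-1.45 ± 0.22) were low throughout, with fetal medians of 12.1, 8.88 and 3.45 CPM. Pnliprp1, a lipase-related protein of pancreas, lay at 11.2 to 582 CPM (median 23.6) in fetal livers and had 2 adult reads. Vil1, villin of intestine, lay at 0.965 to 162 CPM (median 2.6) in fetal livers, with its maximum in liver 14, and Mylpf is a light chain of skeletal muscle myosin (-3.20 ± 0.18). The muscle genes Acta1, Ckm, Mylpf and Myh3 summed to 50.03 CPM in fetal liver 9 and to at most 11.05 CPM in the other fetal livers. Fetal liver 9 is not among the 7 libraries named above. Acta1 of muscle (fetal maximum 11.3 CPM) and Cpa1 of pancreas (113 CPM, in fetal liver 15) were not tested.

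The regulators of hepatocyte identity rose in adult liver, most of them by moderate amounts. Of 38 tested transcription factors 29 were called higher, 1 lower and 8 not called, with a median of 1.72 (1.15 with library totals). The shares over all genes were 19.5% higher and 22.9% lower. Hnf4a, the nuclear receptor at the centre of hepatocyte differentiation, lay at 223 to 292 CPM (median 247) in fetal and 691 to 1322 CPM (median 831) in adult livers (1.81 ± 0.05, adjusted p = 6.87e-37). Cebpa, a factor of metabolic genes, rose by 1.47 ± 0.06 (adjusted p = 7.81e-30), and fell short of the threshold with library totals (0.91). Nr1i3, the xenobiotic receptor CAR, lay at 4.3 to 12.3 CPM (median 7.31) and 94.5 to 367 CPM (median 211), a difference of 4.67 ± 0.13 (adjusted p = 1.13e-34), and Nr0b2, the corepressor SHP that bile acids induce, rose by 6.43. Zhx2 and Zbtb20, factors known to silence Afp after birth, rose by 2.32 ± 0.08 and 2.68 ± 0.09 (adjusted p = 9.07e-33 and 8.63e-34), without overlap. Zhx2 went from a median of 4.3 to 21.8 CPM and Zbtb20 from 10.3 to 67.1 CPM. Onecut1, an early liver factor, was not called (0.13 ± 0.21; -0.43 with library totals), and neither were Foxa3, Gata4, Gata6 and Nr3c1. The gene that fell, Cux2, differed between the gender labels, as given further on.

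Secreted proteins of the hepatocyte were abundant at both stages and rose by moderate amounts. The plasma protein list summed to 69787 to 92251 CPM in fetal and 140380 to 200448 CPM in adult livers. Of 52 tested genes 33 rose, none fell and 19 were not called, with a median of 1.33 (22 rose with library totals). Carriers that the fetus already makes moved little: Trf, transferrin, lay at 11195 to 16363 CPM (median 13366) and 13492 to 21734 CPM (median 16853), a difference of 0.30 ± 0.04, and Ahsg, fetuin-A, at 5023 to 7673 CPM (median 6306) and 5151 to 9850.1 CPM (median 6871), a difference of 0.13 ± 0.06. Their ranges overlapped, and both signs turned with library totals (-0.26 and -0.44). Ttr, the carrier of thyroxine, rose by 1.38 ± 0.04 (adjusted p = 8.41e-39), F2, prothrombin, by 1.17 ± 0.04 (adjusted p = 3.47e-35), and Gc, the vitamin D binding protein, by 2.30 ± 0.04 (adjusted p = 6.67e-48). Ttr and F2 were not called with library totals (0.82 and 0.61). The fibrinogen genes Fga (0.63), Fgb (0.65) and Fgg (0.66) were not called.

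Apolipoproteins differed widely. Apob, the scaffold of very low density lipoprotein, lay at 5712 to 8459.9 CPM (median 6748) in fetal and 15418 to 25457 CPM (median 19467) in adult livers (1.51 ± 0.04, adjusted p = 5.72e-38; 0.95 with library totals). Apoe, a ligand of lipoprotein receptors, lay at 1333 to 1971 CPM (median 1691) and 8249 to 12234 CPM (median 10732), a difference of 2.67 ± 0.04 (adjusted p = 2.40e-50). No fetal liver reached the lowest adult liver for either gene. Apoa5 (medians of 1.53 CPM in fetal and 1425 CPM in adult livers, 9.56) and Apoc3 (medians of 3.82 and 1023 CPM, 7.40), which set the rate of triglyceride clearance, were nearly absent before birth, whereas Apoa1, the main protein of high density lipoprotein, was not called (0.94). Apoa4 lay at 107 to 457 CPM (median 211) in adult livers and at 1602 CPM in fetal liver 14, with at most 3.27 CPM in the other fetal livers. The difference was 3.07 ± 0.80 (adjusted p = 5.04e-04) with all livers and 7.71 without fetal liver 14.

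Innate immune proteins secreted by hepatocytes rose with the carriers. Of 31 tested complement and acute phase genes 24 were higher, 2 lower and 5 not called, with a median of 2.36. C3, the central complement component, rose by 1.42 ± 0.07 (adjusted p = 4.78e-25; 0.85 with library totals), from a median of 3652 CPM (2862 to 4319.8) to a median of 10105 CPM (6465 to 14404). C9 of the membrane attack complex went from a median of 18.5 CPM (10.7 to 27.7) to a median of 601 CPM (289.5 to 1116), a difference of 4.87 ± 0.15 (adjusted p = 1.80e-32), and Mbl2, a mannose-binding lectin, from a median of 17.8 CPM (7.75 to 26.4) to a median of 577 CPM (348 to 969.6), a difference of 4.98 ± 0.13 (adjusted p = 1.73e-35). Neither overlapped. Saa1, serum amyloid A, had 17 reads in all fetal livers and 10.03 to 300.2 CPM (median 24.6) in adult ones (8.41 ± 0.48, adjusted p = 2.45e-21), and its difference was 10.36 without fetal livers 21 and 22. Crp, a pentraxin that is only mildly inducible in mice, rose by 1.63 ± 0.07. The genes that fell, Lcn2 (-5.75 ± 0.19) and Saa3 (-2.12 ± 0.12), are also made by neutrophils and macrophages, and Lcn2 is a member of the neutrophil list.

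Major urinary proteins and many cytochrome P450 genes had few or no fetal reads. Of 20 major urinary protein genes, carriers of pheromones, 18 had a fetal mean under 1 CPM, and 8 passed the read filter and were called higher. Members could pass the filter through adult liver alone, so nothing is read from this count, and the other 12 were not tested. These genes are near-identical copies whose shared reads were not counted, so their values leave out shared reads. Mup3 lay at 2194 to 6835 CPM (median 3786) in adult livers, and at 28.1 CPM in fetal liver 22, 2.04 in 21 and a fetal median of 0. Its difference was 11.59 ± 0.55 with all livers and 16.31 without fetal livers 21 and 22. Of 60 tested cytochrome P450 genes 53 rose, 2 fell and 5 were not called, with a median of 4.41, while 19.5% of all genes were called higher. Another 41 of the 101 listed were not tested, and 56 had a fetal mean under 1 CPM. Members of this family too could pass the filter through adult liver alone, so the count and median are a description. The family as a whole lay at 1386 to 2545 CPM in fetal and 28958 to 39668 CPM in adult livers.

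Within the P450 family, genes differed in how much was present before birth. Cyp1a2, which oxidizes aromatic amines and caffeine, lay at 0 to 2.54 CPM (median 0.142) in fetal and 214 to 695 CPM (median 540.2) in adult livers (10.84 ± 0.20, adjusted p = 7.57e-43; 11.66 without fetal livers 21 and 22). Cyp2c50 lay at 0 to 2.66 CPM (median 0) and 607 to 1550.2 CPM (median 1249.6). Its difference, 12.92 ± 0.24 (adjusted p = 5.33e-42), was the highest of all autosomal genes with all livers kept. Without fetal livers 21 and 22 it was 14.87, below the 16.31 of Mup3. With all livers, Cyp2c54, Cyp2c29 and Cyp2c38 of the same cluster were also among the 10 largest rises. Cyp3a11, the main drug-metabolizing P450 of its subfamily, was present at 63.4 to 139 CPM (median 98.9) before birth and rose to 3508 to 7440.0 CPM (median 5125), a difference of 5.69 ± 0.10 (adjusted p = 2.79e-46). Its relative Cyp3a16, a fetal form, had a fetal median of 134 CPM (103 to 173) and fell in livers labelled M alone. Adult livers labelled M held 0 to 0.762 CPM (median 0) and those labelled F 6.59 to 355 CPM (median 92.6), with stage differences of -9.85 and -0.07 (M minus F -9.78, adjusted p = 1.95e-12). The pooled difference of -1.87 ± 0.49 (adjusted p = 4.75e-04) describes neither label. The log2 ratio of Cyp3a11 to Cyp3a16 per kilobase of exon was -2.51 to -1.45 in fetal and 2.07 to 12.30 in adult livers. Cyp2f2 rose by 6.94 ± 0.11 and Cyp4a14, a fatty acid hydroxylase, by 6.85 ± 0.45. Cyp4f18, an enzyme of neutrophils and other leukocytes, fell by 2.32 ± 0.20.

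Conjugation and transport followed oxidation. Of 37 tested glucuronosyl, sulfo and glutathione transferases 33 rose, 1 fell and 3 were not called (median 3.06). Another 19 were not tested, and 23 of the list had a fetal mean under 1 CPM, so this count is a description as well. Ugt2b1, a glucuronosyltransferase, went from a median of 6.1 CPM (2.99 to 9.15) to a median of 716 CPM (353 to 1382), a difference of 6.86 ± 0.15 (adjusted p = 6.65e-40), and Gsta3, a glutathione transferase, from a median of 343 CPM (267 to 410.1) to a median of 1814 CPM (1358 to 2316), a difference of 2.38 ± 0.05 (adjusted p = 4.78e-43). Neither overlapped. Gstm5 fell by 2.60 ± 0.07. Of 29 tested carriers and canalicular pumps 23 rose, 1 fell and 5 were not called (median 3.19). Slco1b2, the uptake carrier of bilirubin and statins, lay at 32.1 to 71.7 CPM (median 50.1) and 1542 to 3029.9 CPM (median 2473), a difference of 5.59 ± 0.09 (adjusted p = 2.93e-49). Slc22a7 had no fetal read and 9.12 to 87.6 CPM (median 37.5) in adult livers, at least 2685-fold higher. Slc13a3, a carrier of dicarboxylates, fell by 1.90 ± 0.11.

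Genes of bile acid synthesis rose, and some were expressed well before birth. Of 15 tested enzymes 12 rose, none fell and 3 were not called (median 2.83), beside 19.5% higher among all genes. Cyp7a1, the rate-limiting enzyme of the classic pathway, already reached 23.7 to 126 CPM (median 74.4) in fetal livers and lay at 41.9 to 738 CPM (median 176) in adult ones, ranges that overlapped (1.27 ± 0.20, adjusted p = 8.58e-08; 0.71 with library totals). Cyp7b1 and Cyp27a1 of the alternative pathway rose by 8.40 and 5.21, and Cyp8b1, which makes cholic acid, by 3.04 ± 0.13 (adjusted p = 2.53e-26). The conjugating enzymes were further apart: Baat, which adds taurine, lay at 11.4 to 22.8 CPM (median 15.3) and 344 to 546 CPM (median 440.2), a difference of 4.82 ± 0.07 (adjusted p = 1.28e-52), and Slc27a5, the bile acid CoA ligase, at 44.2 to 74.2 CPM (median 58.5) and 1341 to 1991 CPM (median 1546), a difference of 4.77 ± 0.05 (adjusted p = 2.55e-57). For the carriers of bile acids, Abcb11, the export pump, rose by 3.19 ± 0.05 (adjusted p = 5.59e-49) from a fetal median of 209 CPM, and Slc10a1, the uptake carrier, by 2.28 ± 0.08 from 114 CPM.

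Genes of nitrogen disposal and glucose output rose. Of 12 tested urea cycle and ammonia genes 9 rose, 1 fell and 2 were not called (median 2.54), beside 19.5% higher among all genes. Arg1, arginase, went from a median of 279 CPM (182 to 350.04) to a median of 1538 CPM (1267 to 2344), a difference of 2.46 ± 0.06 (adjusted p = 1.08e-39). Ass1, argininosuccinate synthetase, had 12 fetal and 33 adult reads in all and could not be tested. Glul, glutamine synthetase, rose by 2.30 ± 0.05 and Gls2, the liver glutaminase, by 3.58 ± 0.07 (adjusted p = 8.09e-44 and 1.05e-46). The gene that fell was Aldh18a1, which makes proline precursors (-4.37 ± 0.18). It lay at 207.4 CPM in fetal liver 14 and 48.2 to 60.5 CPM in the other 23, and its difference was -4.23 without that liver. Of 45 tested genes of amino acid catabolism and gluconeogenesis 43 rose, 1 fell and 1 was not called (median 2.83).

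Enzymes that begin to act after birth were near 0 in the fetus. Pck1, the cytosolic phosphoenolpyruvate carboxykinase of gluconeogenesis, lay at 0.651 to 37.8 CPM (median 2.07) in fetal and 1732 to 5425 CPM (median 3288) in adult livers (9.70 ± 0.39, adjusted p = 2.08e-27; 10.496 without the 7 libraries named above), with the fetal maximum in liver 14. G6pc, glucose-6-phosphatase, lay at 0.692 to 8.63 CPM (median 3.88) and 188 to 1731 CPM (median 834), a difference of 7.77 ± 0.28 (adjusted p = 3.95e-29), and Tat, tyrosine aminotransferase, at 1.03 to 13.9 CPM (median 2.69) and 992 to 3395 CPM (median 1975), a difference of 9.34 ± 0.23 (adjusted p = 1.57e-36). The highest fetal liver was far below the lowest adult one for these genes. Tdo2, the dioxygenase of tryptophan, had a fetal median of 0.134 and an adult median of 1813 CPM (11.44 ± 0.34, adjusted p = 5.57e-33), with its fetal maximum of 8.83 CPM in liver 22 and a difference of 13.43 without fetal livers 21 and 22. Other enzymes were well established before birth: Hpd, of tyrosine breakdown, rose by 3.57 ± 0.06 from a median of 207 CPM, and Fah, the last enzyme of that path, by 1.49 from 286. Pck2, the mitochondrial counterpart of Pck1, fell from a median of 43.8 CPM (33.2 to 52.9) to a median of 6.34 CPM (2.77 to 11), a difference of -2.83 ± 0.08 (adjusted p = 2.27e-38).

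Most genes of fatty acid oxidation rose, and those of lipid synthesis went both ways. Of 32 tested oxidation and ketogenesis genes 24 rose, none fell and 8 were not called (median 1.70). Cpt1a, which admits fatty acids to the mitochondrion, went from a median of 70.7 CPM (46.4 to 110.2) to a median of 550.3 CPM (402 to 689.6), a difference of 2.95 ± 0.08 (adjusted p = 6.72e-36). Ehhadh of the peroxisome rose by 2.999 ± 0.06 and the receptor Ppara that drives these genes by 1.42 ± 0.06 (0.86 with library totals). Of 34 tested genes of cholesterol and fatty acid synthesis 13 rose, 4 fell and 17 were not called (median 0.77), a called share near the 42.4% of all genes. Scd1, the desaturase of stearate, rose from a median of 204 CPM (111 to 404) to a median of 6496 CPM (3609 to 11802), a difference of 4.83 ± 0.15 (adjusted p = 3.24e-32) and Fasn, fatty acid synthase, from a median of 345 CPM (248 to 528) to a median of 1369.6 CPM (405 to 1970.3), a difference of 1.81 ± 0.13 (adjusted p = 2.82e-17). Of the sterol enzymes, Lss, lanosterol synthase, fell by 1.63 ± 0.08 (adjusted p = 3.18e-25), while Sqle, squalene epoxidase, was not called (-0.69 ± 0.10; -1.26, called, with library totals).

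Genes of sugar use went both ways. Of 29 tested genes 7 rose, 9 fell and 13 were not called (median -0.65; 16 fell with library totals), beside 42.4% called among all genes. Hk2, a hexokinase of growing tissue, fell from a median of 41.2 CPM (34.4 to 54.9) to a median of 4.34 CPM (1.47 to 9.27), a difference of -3.19 ± 0.10 (adjusted p = 8.81e-35). Aldoa, the aldolase of muscle, was not called (-0.92 ± 0.05; -1.49, called, with library totals). The pyruvate kinase Pkm2 fell by 2.47 ± 0.05 and the liver form Pklr was not called (0.12 ± 0.10; -0.45 with library totals), with log2 ratios of Pklr to Pkm2 of 0.32 to 1.28 in fetal and 1.64 to 4.34 in adult livers. Khk, ketohexokinase, rose by 3.97 ± 0.07 (adjusted p = 2.79e-46). Of the glucose carriers, Slc2a1 (-5.04) and Slc2a3 (-5.36) fell and Slc2a2, the hepatocyte form, rose (1.75).

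Both ends of the liver lobule gained expression. Of 16 tested pericentral genes 11 rose, 2 fell and 3 were not called (median 2.80), and of 16 periportal genes 14 rose, none fell and 2 were not called (median 3.05). Axin2, a target of Wnt signalling around the central vein, lay at 0.39 to 3.67 CPM (median 1.05) and 4.44 to 20.5 CPM (median 10.3), a difference of 2.99 ± 0.18 (adjusted p = 7.67e-22), and Rhbg, an ammonium carrier, at 0.291 to 3.75 CPM (median 2.07) and 4.32 to 24.3 CPM (median 13), a difference of 2.62 ± 0.15 (adjusted p = 3.52e-23). Oat, ornithine aminotransferase, rose by 4.41 ± 0.22 and held 564.9 CPM in fetal liver 14, with at most 70.7 CPM in the other fetal livers. Of the portal genes, Hal, histidase, lay at 20.9 to 40.4 CPM (median 31.5) and 473 to 989 CPM (median 700.1), a difference of 4.50 ± 0.08 (adjusted p = 7.21e-47), and Sds, serine dehydratase, rose by 6.24 ± 0.14 (adjusted p = 1.74e-39). Hsd17b13, a lipid droplet protein, rose by 1.02 ± 0.05 and was not called with library totals (0.46). Members of the pericentral list that fell were Slc1a4 (-3.36 ± 0.08), a carrier of neutral amino acids, and Slc13a3. Whole liver gives no position within the lobule.

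Genes of iron handling and metallothioneins went both ways. Of 19 tested genes 7 rose, 3 fell and 9 were not called (median 0.61; 4 rose with library totals), a called share near the 42.4% of all genes. Hamp, hepcidin, the hormone that limits iron export, went from a median of 4.27 CPM (0.804 to 11.1) to a median of 250.1 CPM (83.4 to 569), a difference of 5.63 ± 0.23 (adjusted p = 1.67e-27), and Tfr2, an iron sensor upstream of hepcidin, from a median of 104 CPM (88.3 to 135) to a median of 545 CPM (508 to 649), a difference of 2.38 ± 0.04 (adjusted p = 2.74e-47). Neither overlapped. The metallothioneins Mt1 (-3.21 ± 0.25) and Mt2 (-4.92 ± 0.26), which bind zinc and copper, fell, as did Hmox1, which degrades heme (-2.41). Mt1 lay at 133 to 364 CPM (median 254) in fetal and 1.96 to 91.8 CPM (median 31.2) in adult livers.

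Genes of immune recognition rose. Of 34 tested antigen presentation and interferon genes 24 were higher, 1 lower and 9 not called (median 1.85), beside 19.5% higher among all genes. H2-K1, a classical MHC class I chain, lay at 83.6 to 152 CPM (median 118) in fetal and 940.3 to 1643 CPM (median 1232) in adult livers (3.43 ± 0.04, adjusted p = 2.66e-54), and B2m, its partner, at 178 to 253 CPM (median 227) and 1095 to 1572 CPM (median 1295), a difference of 2.55 ± 0.04 (adjusted p = 1.26e-50). Cd74, the chaperone of MHC class II, rose from a median of 6.11 CPM (4.05 to 10.1) to a median of 73.8 CPM (37.2 to 174), a difference of 3.64 ± 0.11 (adjusted p = 1.39e-35). No adult liver was as low as a fetal one for these genes. The interferon response was less uniform: Irf7 rose by 1.66 ± 0.14, Isg15 was not called (-0.11), and Rsad2, viperin, fell by 2.61 ± 0.15 (adjusted p = 1.68e-21).

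Several genes of clock output rose. Of 16 tested genes 9 rose, none fell and 7 were not called (median 1.13; 5 rose with library totals). Among all genes 42.4% were called and 19.5% were called higher. Nr1d1, the repressor REV-ERB alpha, lay at 0.23 to 1.94 CPM (median 1.16) and 21.1 to 63.2 CPM (median 36.6), a difference of 5.11 ± 0.13 (adjusted p = 3.77e-39). Dbp, an output factor, lay at 0.39 to 1.95 CPM (median 0.973) and 2.88 to 101 CPM (median 35.2), a difference of 5.42 ± 0.33 (adjusted p = 1.96e-20), with a wide adult range. Arntl (-0.35 ± 0.13) and Per1 (-0.60 ± 0.19; -1.16, called, with library totals) were not called. All animals were killed within the same morning hours, so a shift of phase and a change of level cannot be told apart.

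Most genes of translation moved by less than 1, those of respiration had a median near 1, and the counts of both rested on the scaling. Of 71 tested ribosomal protein genes 1 rose, 2 fell and 68 were not called (median -0.53), but 46 fell with library totals. Rpl3 (-0.87 ± 0.04) and Rps6 (-0.58 ± 0.04) were typical, and Rps27l, a p53 target related to Rps27, was the one that rose (1.13 ± 0.05; 0.57 with library totals). Of 73 tested oxidative phosphorylation genes 35 rose, 1 fell and 37 were not called (median 0.98), and 5 rose with library totals. Among all genes 42.4% were called. The ranges did not overlap for 63 of the oxidative phosphorylation genes and 28 of the ribosomal protein genes, beside 41.8% of all genes. Ndufa4 of the respiratory chain rose by 1.47 ± 0.04 (0.90 and not called with library totals). The gene that fell was Cox6b2, a subunit isoform known from testis (-5.32 ± 0.21).

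Beyond the lists, A2m, the alpha-2-macroglobulin of fetal and inflamed liver, was the most abundant gene among the 10 largest falls outside the oncofetal list, at 1150.2 to 2899 CPM (median 2134) in fetal and 0 to 0.79 CPM (median 0) in adult livers (-12.89 ± 0.17, adjusted p = 7.36e-51). Its relative Pzp, which is abundant at both stages, rose by 1.07 ± 0.05 (0.51 with library totals). BC100530, a stefin family gene, had a fetal median of 221 CPM and no adult read (at least 3919-fold lower). Among the largest rises, Inmt, a methyltransferase of indoleamines, lay at 319 to 826 CPM (median 609) in adult livers with 22 reads in all fetal ones (12.10 ± 0.19). Slco1a4, an organic anion carrier, rose by 12.02 ± 0.20 (12.46 without fetal livers 21 and 22), and Ces3b, a carboxylesterase, by 11.89 ± 0.25 (13.64 without them). Serpina3k, a protease inhibitor, was among the 10 most abundant adult genes at 3882 to 13857 CPM (median 8973), with a fetal median of 0.4 CPM and 64.4 CPM in fetal liver 22 (11.43 ± 0.61, adjusted p = 1.70e-22; 13.90 without fetal livers 21 and 22). Trf, Alb, Apob, C3 and Malat1, a nuclear non-coding RNA, were among the 10 most abundant autosomal genes at both stages.

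Pooling the gender labels hid differences for a limited set of genes. The stage difference itself differed between livers labelled M and F for 478 of 12526 tested autosomal genes (3.82%), 316 of which were also called between the stages. In rodents the pattern of growth hormone release differs between adult males and females and sets many liver genes. Cyp2a4, a steroid hydroxylase, lay at 0 to 1.4 CPM (median 0.35) in adult livers labelled M and 769 to 1442 CPM (median 1079.6) in those labelled F, and its stage difference was -3.72 in M and 7.62 in F (M minus F -11.34 ± 0.40, adjusted p = 3.98e-27). Cyp2b9 (-2.87 in M, 6.29 in F) and Nt5e, a nucleotidase (-1.97 and 1.27), were also called in opposite directions, as 12 autosomal genes were in all. Cux2, a repressor found in female liver, lay at 0 to 0.764 CPM (median 0.684) in M and 20.001 to 68.4 CPM (median 35.1) in F adults, with stage differences of -6.01 and 0.38 (adjusted p of the difference = 4.54e-24). Its pooled call lower in adult liver was not made in livers labelled F. Genes with a larger rise in livers labelled M included Mup20, which lay at 4693 to 8277 CPM (median 5958) in adult M and 89 to 289.6 CPM (median 149) in adult F livers, C6 of the membrane attack complex (5.23 and 1.78) and Gstp1 (3.62 and 0.47). Prlr, the prolactin receptor, rose more in F (4.78) than in M (1.98), and so did Cyp4a14 and Socs2, a feedback inhibitor of growth hormone signalling.

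Of the oncofetal genes, only Afp had a difference between the labels (1.46 ± 0.36, adjusted p = 0.00203), which rested on adult levels under 4 CPM. The share with such a difference over all tested autosomal genes was 3.82%. Of the cell division genes, Mki67 fell further in M (-9.03) than in F (-7.92), with adult medians of 4.97 and 11.5 CPM. The share of uniquely aligned reads outside annotated genes was 39.9 to 49.0% in fetal livers labelled M and 34.1 to 38.1% in those labelled F, without overlap. The share without a unique alignment was 42.2 to 61.1% in adult livers labelled M and 32.7 to 43.2% in those labelled F. The part of either share in the differences between the labels was not tested. Fitted differences in a single label are imprecise where fetal reads were near 0. For 7 named genes the difference between the labels was no longer called without the 7 fetal libraries above: Mup3, Slco1a1, Pck1, Tdo2, Cyp2c29, Ces3b and Serpina3k. For Apoa4 it turned from 6.06 ± 1.61 to -1.22.

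**Figure D5:**
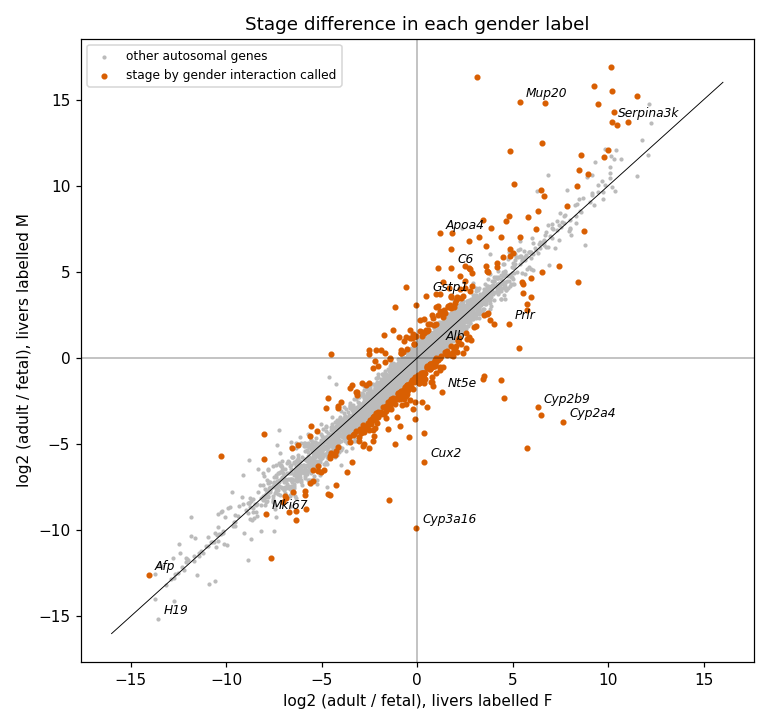
Difference between adult and fetal liver, log2 (adult/fetal), in livers labelled F (x axis) against livers labelled M (y axis) for autosomal genes, with genes called for the stage by gender interaction in orange and a line where both are equal. Most genes lie along the line, and Cyp2a4, Cyp2b9, Cux2 and Nt5e lie where the signs differ between the labels.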

How the data were processed

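RNA was extracted from 24 adult and 24 fetal livers (fetuses at 17.5 days post coitum) with the miRNeasy kit, and libraries were made with the TruSeq Stranded Total RNA kit and pooled to 12 per lane. Which livers shared a lane is not given in the sources used here. The authors aligned reads to mm10 with TopHat2 2.0.4, Bowtie2 2.1.0 and SAMtools 0.1.18, removed duplicates with Picard and counted reads per gene with HTSeq. The strand setting of HTSeq is not given in the sources used here, so overlapping and antisense genes are uncertain. The deposited values are raw counts per gene. Reads with several alignments were not counted, so near-identical copies hold few or no reads.

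The 5 summary rows of each file were left out of totals and tests. Reads outside genes made up 34.1 to 49.0% of uniquely aligned reads in fetal and 25.7 to 36.6% in adult livers. Reads without a unique alignment made up 23.2 to 28.5% and 32.7 to 61.1% of these reads and themselves together. Of 23338 genes 99.02% were placed on GRCm38 chromosomes, 20953 by GENCODE symbol, 205 by RefSeq symbol and 1951 by RefSeq synonym. Autosomal genes are described. The stage difference was tested with edgeR 4.0.16 (quasi-likelihood test, robust, TMM, filterByExpr by stage) in R 4.3.3 with gender as covariate, and its difference between M and F with a stage by gender term. Both tests are two-sided, and p-values were adjusted by Benjamini and Hochberg over all genes tested. A gene was called at an adjusted p under 0.05 and an absolute log2 above 1. Where a stage had no read, the fold is a bound against 3 reads over the 24 livers of that stage. Floors and bounds cover counting error only. Standard errors were derived from the log2 and the F statistic of the fit, and can understate the error where a stage held few reads. The tests were checked on simulated data. No 2 libraries agreed within sampling noise. The replicate numbers of the titles do not pair fetal with adult livers.

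The members, the gene lists and the rule for named genes were chosen with earlier results of these data known. Named genes were the 4 label markers, key members of each list, the 10 largest changes in each direction at a mean of at least 10 CPM, the 10 most abundant genes of each stage, called members against the direction of their list, and up to 3 genes called in opposite directions in M and F. Other list members named for their role were chosen after their values were seen. The alternatives were other scalings (including DESeq2 1.42.0), filters, thresholds, livers of 1 label, thinning to the shallowest library, a covariate for reads outside genes, a replicate block and, added after seeing the data, leaving out fetal liver 14, fetal livers 21 and 22, or 7 fetal livers. Python 3.11.15 was used for summaries and figures.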

Additional observations from a re-analysis of the deposited data

Results flagged for a closer look

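For 29 of the named genes the stage difference itself differed between livers labelled M and F in the edgeR interaction test. All differences below are M minus F on the log2 scale, with 24 livers per stage. The share of reads outside genes differed between fetal M and F libraries without overlap (39.9 to 49.0% and 34.1 to 38.1%), as the share without a unique alignment did (23.2 to 26.1% and 26.4 to 28.5%), and their part was not tested.

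Several genes of xenobiotic and steroid metabolism differed between the labels. Cyp2a4 had -11.34 (adjusted p = 3.98e-27) and Cyp2b9 -9.16 (adjusted p = 1.66e-26), with adult medians of 0.839 CPM in M and 715 in F for Cyp2b9. Cyp3a16, the fetal P450, had -9.78 (adjusted p = 1.95e-12), and it was near 0 in adult livers labelled M (0 to 0.762 CPM) and still at 6.59 to 355 CPM (median 92.6) in those labelled F. Cyp4a14 had -4.01 (adjusted p = 5.08e-06), Sult1a1 -1.07 (adjusted p = 4.95e-10) and Cyp7a1 -1.34 (adjusted p = 0.00186). Differences towards M were 3.16 for Gstp1 (adjusted p = 3.28e-31) and 1.28 for Ugt2b1 (adjusted p = 1.04e-07). In adult livers Gstp1 lay at 918 to 1388 CPM (median 1076) in M and 106 to 198 CPM (median 138) in F.

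Among hormone and regulator genes, Cux2 had -6.38 (adjusted p = 4.54e-24), Prlr -2.78 (adjusted p = 3.60e-06) and Socs2 -2.12 (adjusted p = 4.90e-05). Adult Prlr lay at 52.4 to 167 CPM (median 86.1) in M and 365 to 606 CPM (median 445) in F, and its fetal medians were 27.1 and 14.7 CPM. Nt5e had -3.23 (adjusted p = 9.37e-30) and Pnpla3, a lipid droplet lipase, -3.38 (adjusted p = 2.53e-07). Mt1 had -1.65 (adjusted p = 0.0044), with adult medians of 5.55 CPM in M and 42.2 in F.

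Secreted proteins went both ways. C6 had 3.47 (adjusted p = 7.07e-26), with 331 to 544 CPM (median 423) in adult M and 28.8 to 59.6 CPM (median 38.3) in adult F livers. C9 had 1.34 (adjusted p = 7.21e-08) and Mbl2 -1.02 (adjusted p = 2.21e-05). Mup20 had 9.52 (adjusted p = 3.72e-10) with all livers and 5.57 without the 7 fetal libraries that stood apart.

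Among the oncofetal genes 1, Afp, differed between the labels, as did 9 of the 54 genes of DNA replication and mitosis. Over all tested autosomal genes the share was 3.82%. Afp had 1.46 (adjusted p = 0.00203), with adult medians of 1.78 CPM in M and 0.697 in F. Mki67 had -1.11 (adjusted p = 1.46e-04) and Ccnb1 -1.35 (adjusted p = 0.0273). Their adult levels were low, with medians of 4.97 CPM in M and 11.5 in F for Mki67 and 0.522 and 0.920 for Ccnb1.

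The remaining 8 differences shrank or turned when the 7 fetal libraries that stood apart were left out. Mup3 had 6.75 with all livers and 1.52 without the 7 libraries. Slco1a1 had 3.23 and 1.58, Pck1 1.74 and 0.34, Tdo2 4.01 and 1.23, and Cyp2c29 3.74 and 0.74. Ces3b had 2.70 and -0.02, Serpina3k 3.52 and -0.49, and Apoa4 6.06 and -1.22. Apart from Apoa4, none of them was called without the 7 libraries. That fit held fewer fetal livers and was less precise, and the part of this in the lost calls was not tested. Without fetal livers 21 and 22 alone, Tdo2 had 1.70 and was still called.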

How the results depend on the processing

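With library totals 1404 genes were higher and 4436 lower in adult liver, and with totals without the most abundant genes 1445 and 4324. Without an expression filter 7834 were called (4749 lower). At an adjusted p under 0.1 and an absolute log2 above 0.5, 8101 were called (3886 higher, 4215 lower), and with no fold threshold 10898 (5311 higher, 5587 lower). Other scalings, tests and sample choices gave 4192 to 5310 called genes. The difference between M and F was called for 309 genes after thinning, against 478. The fit with the replicate block called 5164 genes, and 416 for the difference between M and F. The 24 same-numbered pairs correlated at -0.0882 to 0.0439 (median -0.00804), and 1 fetal liver correlated best with its own number, so the numbers do not pair the livers. Directions turned for Epcam (-1.41 to 0.33 without 7 fetal livers and 0.029 without fetal liver 14), Cux2 (-1.07 to 0.38 in F and 0.28 with the share of reads outside genes as covariate), Nt5e (-0.04 to 1.27 in F), Cyp2a4 (4.73 to -3.72 in M) and Cyp2b9 (3.49 to -2.87 in M). The differences between M and F turned for Apoa4 (6.06 to -1.22 without 7 fetal livers and -0.75 without fetal liver 14), Ces3b (2.70 to -0.019 without 7) and Serpina3k (3.52 to -0.49 without 7 and -0.41 without fetal livers 21 and 22). The cause was not tested. Of the named genes, 185 kept direction and call without fetal livers 21 and 22, 184 with the replicate block, and 161 with library totals. Adult libraries were shallower, so low adult levels are less precise. The T and NK list gave no value after thinning.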

Other observations

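Some genes varied widely among livers of 1 stage and gender, and were picked after their values were seen. Over 8489 genes the median SD of log2 levels within gender was 0.224 in adult liver. Rgs16, a regulator of G protein signalling, ranged over 2.29 to 256 CPM (median 48.2) with an SD of 1.41, and the clock output gene Dbp over 2.88 to 101 CPM (median 35.2) with an SD of 1.37. Cish, a feedback inhibitor of cytokine signalling, ranged over 0.762 to 42 CPM (median 10.8), Lpin1, a phosphatase of lipid synthesis, over 64.8 to 883 CPM (median 182), and Hspa1b, a heat shock protein, over 2.1 to 164 CPM (median 13.5). Over 9062 genes the median SD in fetal liver was 0.142. The widest fetal ranges included the pancreatic genes Ctrb1 (0 to 327 CPM (median 0.352)) and Cel (0 to 197 CPM (median 0.143)) and the intestinal gene Lct (0.291 to 419 CPM (median 0.986)). Lars2, the mitochondrial leucyl-tRNA synthetase, ranged over 11.1 to 379 CPM (median 25.8) with an SD of 1.31, and its maximum was in a liver labelled F.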
